A study of Mus musculus with 2 samples.

Results

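The SWI/SNF genes described here are 10 genes that encode subunits of the BAF and PBAF chromatin remodeling complexes. They were chosen by gene symbol (Smarca4, Smarca2, Arid1a, Arid1b, Arid2, Smarcc1, Smarcc2, Smarcb1, Pbrm1 and Smarcd1), and every transcript row carrying one of these symbols was taken. They comprised 10 of 24117 gene symbols and 52 of 48876 transcripts. RNA that co-purified with chromatin by enChIP was sequenced from Ba/F3-derived cells, a mouse hematopoietic cell line of strain C3H. One library came from cells expressing 3xFN-Tel-TAL, a FLAG-tagged TAL protein with a nuclear localization signal that recognizes telomeric repeats. The other came from cells expressing 3xFNLDD, a FLAG-tagged DNA-binding domain of the bacterial protein LexA that served as negative control. In both, chromatin was crosslinked with formaldehyde, sonicated and precipitated with an anti-FLAG antibody, so a value is the amount of an RNA in the precipitate and not in the whole cell.

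SWI/SNF complexes use ATP to slide or evict nucleosomes and thereby open promoters and enhancers. Each complex holds a single ATPase, either Smarca4 (BRG1) or Smarca2 (BRM), on a core that includes Smarcc1, Smarcc2, Smarcb1 and Smarcd1. An ARID subunit then sets the class, since BAF holds Arid1a or Arid1b, whereas PBAF holds Arid2 together with Pbrm1. Smarca4-containing complexes are known to be required for the development of several blood lineages. The measurements concern the RNAs of these genes and say nothing about their proteins.

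The 3xFNLDD library held 7206183 reads and the 3xFN-Tel-TAL library 9774844 reads, and 3 reads corresponded to 0.416 and 0.307 RPM (reads per 1000000 library reads), respectively. There was 1 library per condition, so no difference has a replicate check and no p-value is given. Each ratio is the RPM in 3xFN-Tel-TAL divided by that in 3xFNLDD, and the range in parentheses after a log2 ratio is its exact 95% Clopper-Pearson interval. These intervals describe counting error alone and compare the libraries rather than the conditions. Since no molecular identifiers were used, PCR copies of a molecule count as separate reads. Each library was dominated by 11 transcripts above 1% of either library, which took 84.8% and 81.1% of the reads. The median log2 ratio over the 12517 genes with a summed total of at least 20 reads was 0.37, and TMM scaling lowered every log2 ratio by 0.37, so a ratio is also given relative to this median where it matters. Of 7 hematopoietic markers, all had reads in both libraries, and their summed level was 130.7 RPM in 3xFNLDD against 224.1 RPM in 3xFN-Tel-TAL. Kit was at 2 reads in each. Of 8 markers of other cell types, Alb and Epcam were not among the listed transcripts and the summed level of the other 6 was 14.6 and 9.92 RPM. Their directions differed. Hbb-b1 had 49 and 73 reads, Hba-a1 22 and 9, Col1a1 14 and 5, Col1a2 11 and 4, Gfap 7 and 4, and Krt8 2 in each. The part of these shifts in the results below was not tested. Whether an RNA differed in its attachment to the precipitated chromatin, in its amount per cell or in the number of cells that held it cannot be told apart here, since RNA from before the precipitation was not analysed here.

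All 10 SWI/SNF genes were read in both libraries, and all had at least 200 reads in total. The threshold of 1.4 used here is one that the study applied to read counts of non-coding RNAs, not to genes by RPM. The largest ratio was that of Smarcd1, followed by Smarcc1 and Arid1a, and the lowest was that of Arid1b. A ratio above 1.4 was found for 4 of the 10 genes (Smarcd1, Smarcc1, Arid1a and Smarcc2), beside 41.1% of all genes with at least 20 reads. A ratio below 1/1.4 was found for 0 of 10, beside 11.5% of all such genes and 5.87% of those with at least 200 reads. The median log2 ratio of the 10 genes was 0.36, beside 0.37 for all genes, so the SWI/SNF genes were spread around the middle of the transcriptome. The lower bound lay above a ratio of 1 for 6 genes, beside 34.3% of all genes with at least 20 reads and 59.2% of the 3065 genes with at least 200 reads. The upper bound lay below 1 for Arid1b alone, beside 7.29% and 9.04%, respectively. Relative to the median of all genes, the interval lay wholly above for Smarcd1, Arid1a and Smarcc1, beside 14% of genes with at least 20 reads and 24.2% of those with at least 200. It lay wholly below for Arid1b and Smarca2, beside 16.4% and 21.3%. With TMM scaling the 4 genes above 1.4 and 0 below became 3 above (Smarcd1, Smarcc1 and Arid1a) and 1 below (Arid1b). The shares beside these were 20.4% and 22.4% of genes with at least 20 reads, and 16.3% and 13.4% of those with at least 200.

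**Figure D1:**
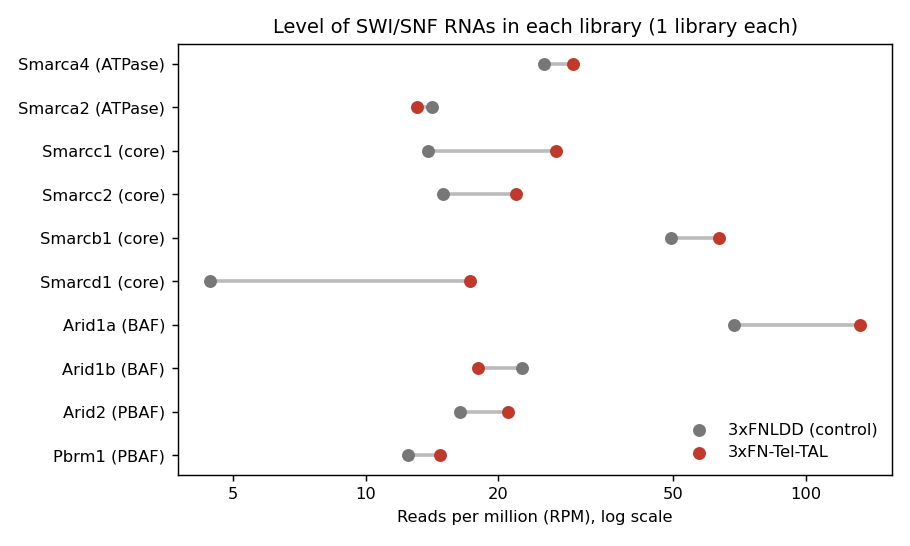
RPM of each SWI/SNF gene in both libraries, 3xFNLDD and 3xFN-Tel-TAL, summed over its transcripts. A grey line joins the values of a gene and is not an interval. Arid1a was highest in both libraries, at 68.7 and 132.6 RPM, and Smarcd1 was lowest in 3xFNLDD, at 4.44 RPM, and reached 17.3 RPM in 3xFN-Tel-TAL.

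The ATPase genes gave ratios near 1. Smarca4, the ATPase BRG1 (chr9:21616106-21704230, GRCm38), had 183 reads in 3xFNLDD against 289 in 3xFN-Tel-TAL, or 25.4 and 29.6 RPM. Its log2 ratio was 0.22 (-0.053 to 0.49), which includes no difference. Smarca2, the alternative ATPase BRM (chr19:26605073-26778321), had 102 and 128 reads, or 14.2 and 13.1 RPM. The log2 ratio of Smarca2 was -0.11 (-0.50 to 0.28), and it lay 0.48 below the median of all genes, with an upper bound of -0.090 relative to that median. The ratio of Smarca4 was 1.26 times that of Smarca2, a log2 difference of 0.33 (-0.15 to 0.81), which includes 0. With the most-read transcript of each gene alone, however, the difference was 0.63 (0.11 to 1.14), so the call depends on the minor transcripts of Smarca2 described further on. Such a ratio of ratios does not depend on how the libraries are scaled. The paralogs share at most 20 consecutive bases in their most-read transcripts, so few reads could match both.

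Among the core subunits, Smarcd1 stood highest. Smarcd1 (chr15:99702287-99713995) encodes BAF60A, a subunit that links the remodeler to transcription factors. It had 32 reads in 3xFNLDD against 169 in 3xFN-Tel-TAL, or 4.44 and 17.3 RPM. This was 3.89-fold higher in 3xFN-Tel-TAL, with an interval of 2.66 to 5.87, and a log2 ratio of 1.96 (1.41 to 2.55). Of the 3065 genes with at least 200 reads, 23, or 0.75%, had a larger ratio. A ratio above 2 was found for Smarcd1 alone among the 10, beside 15% of genes with at least 20 reads and 11.2% of those with at least 200. Smarcd1 passed the minimum of 200 with 201 reads, 169 of them from the library in which it was higher. Its place among the genes with at least 200 reads is therefore partly set by that minimum and is descriptive only. Smarcd1 is also the member with the fewest reads, and its lower bound of 1.41 on the log2 scale was above the point estimate of each of the other 9 genes.

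The Smarcd1 difference was also present against its paralogs, which occupy the same place in the complex. Smarcd2 had 44 and 85 reads, and Smarcd3 had 55 and 87. The ratio of Smarcd1 exceeded that of Smarcd2 by 1.45 on the log2 scale (0.65 to 2.26) and that of Smarcd3 by 1.73 (0.97 to 2.52). Against the core subunit Smarcc1 the interval of the log2 difference was 0.34 to 1.69, and against Smarca4 the difference was 1.74 (1.12 to 2.40). All of these intervals lay above 0. Of the reads of the 10 genes, Smarcd1 took 1.83% (exact 95% interval 1.26% to 2.58%) in 3xFNLDD and 4.82% (4.13% to 5.58%) in 3xFN-Tel-TAL.

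The scaffold genes differed less. Smarcc1 (BAF155, chr9:110132024-110240178) had 100 and 264 reads, or 13.9 and 27.0 RPM, a log2 ratio of 0.96 (0.62 to 1.31). Its paralog Smarcc2 (BAF170, chr10:128459182-128490591) had 108 and 215 reads, or 15.0 and 22.0 RPM, a log2 ratio of 0.55 (0.21 to 0.90). Both were higher in 3xFN-Tel-TAL by more than the counting error. The log2 difference between the paralogs was 0.41 (-0.083 to 0.90), which includes 0. Relative to the median of all genes, Smarcc1 lay 0.59 above (0.26 to 0.94) and Smarcc2 0.19 above (-0.15 to 0.53). Smarcb1 (SNF5, chr10:75896769-75921614), a core subunit that contacts the nucleosome and is a known tumor suppressor, had 355 and 620 reads, or 49.3 and 63.4 RPM. The log2 ratio of Smarcb1 was 0.36 (0.17 to 0.56), which is that of the median gene.

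The ARID subunits that are alternatives in BAF lay on opposite sides of a ratio of 1. Arid1a (BAF250A, chr4:133679008-133756769) had 495 and 1296 reads, or 68.7 and 132.6 RPM. It was 1.93-fold higher in 3xFN-Tel-TAL. The log2 ratio was 0.95 (0.80 to 1.10), the narrowest interval of the 10 because it had the most reads. Arid1b (BAF250B, chr17:4994297-5347656), which replaces Arid1a in some BAF complexes, had 163 and 176 reads, or 22.6 and 18.0 RPM. Its ratio was 0.796, a log2 ratio of -0.33 (-0.64 to -0.013). Whereas the 3xFN-Tel-TAL library held more Arid1a RNA by RPM, it held less Arid1b RNA. The ratio of Arid1a was 2.42 times that of Arid1b, a log2 difference of 1.28 (0.92 to 1.63). Of the 3065 genes with at least 200 reads, 396 (12.9%) had a larger ratio than Arid1a and 249 (8.12%) a smaller ratio than Arid1b.

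The PBAF members Arid2 and Pbrm1 lay close to the median gene. Arid2 (BAF200, chr15:96287522-96405463) had 118 and 206 reads, or 16.4 and 21.1 RPM, a log2 ratio of 0.36 (0.031 to 0.70). Pbrm1 (BAF180, chr14:31019138-31121592), a subunit whose bromodomains bind acetylated histones, had 90 and 144 reads, or 12.5 and 14.7 RPM, a log2 ratio of 0.24 (-0.15 to 0.63). The ratio of Arid1a exceeded that of Arid2 by 0.58 on the log2 scale (0.21 to 0.95). Under TMM scaling the signs of Smarca4 (-0.15), Pbrm1 (-0.13), Arid2 (-0.0048) and Smarcb1 (-0.0043) turned, and each interval included 0. Hence no direction is given for these 4 genes. Of the other PBAF subunits, Brd7 had 26 and 46 reads, a log2 ratio of 0.38 (-0.34 to 1.14), and Phf10 had 20 and 55 reads, a log2 ratio of 1.02 (0.26 to 1.84).

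**Figure D2:**
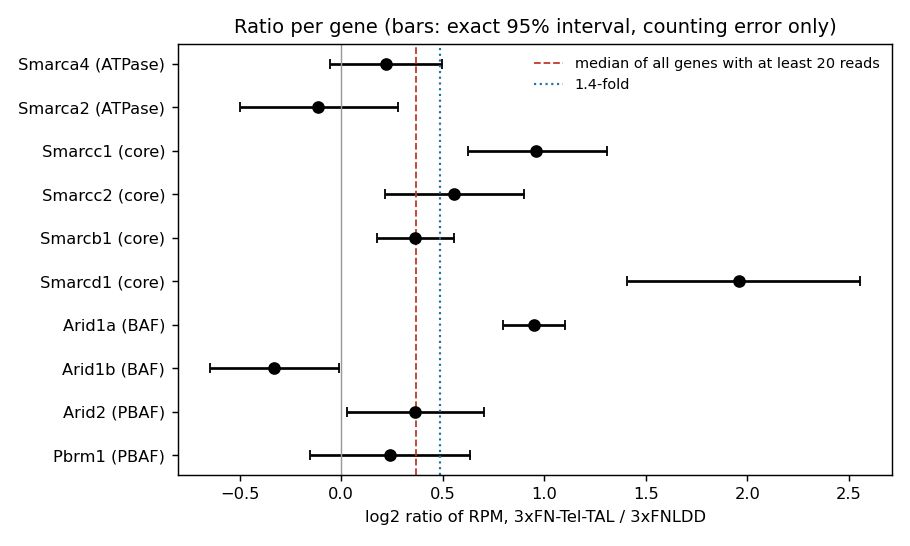
Log2 of the RPM ratio, 3xFN-Tel-TAL over 3xFNLDD, for the 10 SWI/SNF genes, with exact 95% intervals for counting error. Smarcd1 is at 1.96, Smarcc1 and Arid1a are at 0.96 and 0.95, and Arid1b is lowest at -0.33, around a median of all genes of 0.37.

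Per length of transcript, the order of the genes differed between the libraries. The level used here is RPM per kb, summed over the transcripts of known length. Arid1a was first in both libraries, at 13.0 and 22.6 RPM per kb. Smarcb1 came next in both, at 11.3 and 12.8 RPM per kb, and its interval in 3xFNLDD (10.2 to 12.5) overlapped that of Arid1a (11.9 to 14.2). These genes stood apart from the other 8, which ranged up to 5.35 RPM per kb in 3xFNLDD and 5.48 RPM per kb in 3xFN-Tel-TAL. Such a sum depends on which transcripts are annotated. The coding transcript of Smarcb1 alone was at 3.43 and 2.22 RPM per kb, within the range of the other 8. In Arid1a, a transcript of 1262 bases with 23 and 40 reads added 2.53 and 3.24 RPM per kb. Smarcd1 was last of the 10 in 3xFNLDD, at 1.41 RPM per kb (0.96 to 1.99), and came next after Smarcb1 in 3xFN-Tel-TAL, at 5.48 RPM per kb (4.69 to 6.38). In 3xFN-Tel-TAL, however, Smarcd1 overlapped in interval with its neighbours Smarcc1, at 4.81 RPM per kb (4.24 to 5.42), and Smarcc2, at 4.74 RPM per kb (4.12 to 5.41). Arid1b came next after Smarcb1 in 3xFNLDD, at 5.35 RPM per kb (4.56 to 6.24), and 7th in 3xFN-Tel-TAL, at 4.68 RPM per kb (4.02 to 5.43). These intervals overlapped that of Smarca4 in 3xFNLDD (3.44 to 4.62) and that of Smarcd1 in 3xFN-Tel-TAL, so the places of Arid1b are not firm. Smarca2 was lowest in 3xFN-Tel-TAL, at 1.78 RPM per kb (1.48 to 2.11), but 34 of its 230 reads, most of them from 3xFN-Tel-TAL, lie on transcripts without a known length and are left out of this level.

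Of the 52 transcripts, 20 had a summed total of at least 20 reads and held 97.1% of the 5253 reads of the 10 genes. The other 32 had at most 14 reads each. A ratio above 1.4 was found for 9 of the 20, beside 44.2% of all transcripts with at least 20 reads, and below 1/1.4 for 2 of the 20, beside 11.1%. The 2 transcripts below were the coding transcript of Smarcb1 and the longer coding transcript of Arid1b.

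**Figure D3:**
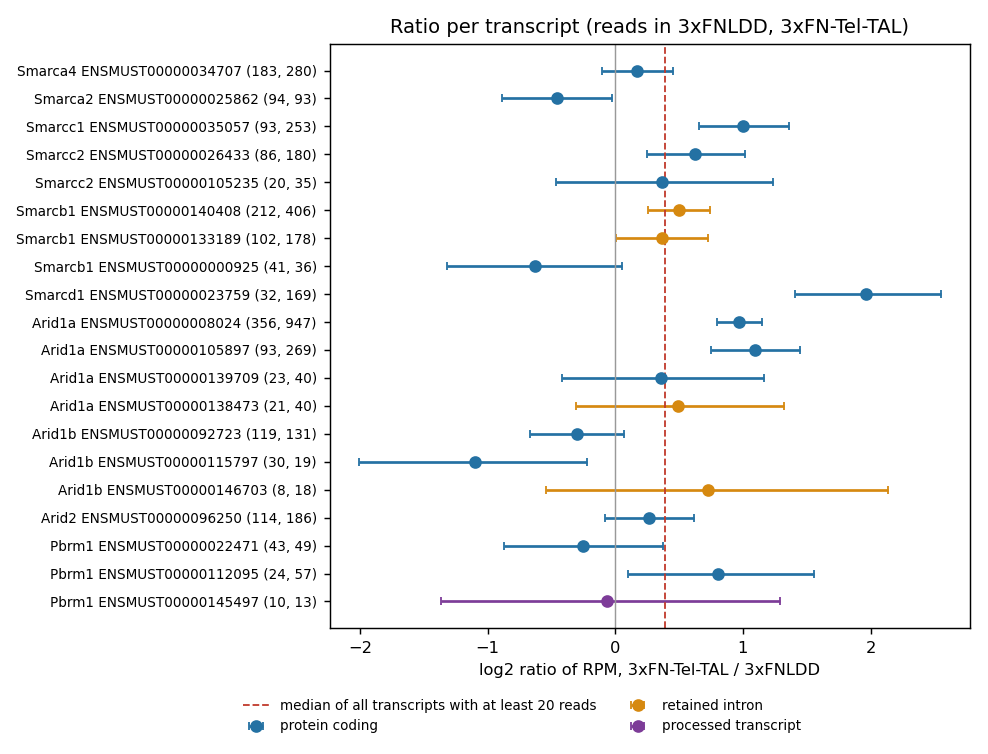
Log2 of the RPM ratio, 3xFN-Tel-TAL over 3xFNLDD, for the 20 SWI/SNF transcripts with at least 20 reads, colored by annotated type, with exact 95% intervals for counting error and the reads of both libraries beside each name. The Smarcd1 transcript is highest at 1.96 and Arid1b ENSMUST00000115797 lowest at -1.10.

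Several members had coding isoforms that share most of their sequence. The following stretches are held by 1 of 2 well-read isoforms and lacking in the other, in capitals between lower-case flanks that both share. They are shown as examples of sequence in which the isoforms differ. Longer unshared sequence of these isoforms, and a 342-base stretch of Smarcc2 ENSMUST00000105235, are not shown. Sequences were taken from GENCODE M1, and positions count from 1 at the 5′ end of the transcript. In Arid1a, ENSMUST00000105897 holds 3 bases (3543 to 3545) that ENSMUST00000008024 lacks, and ENSMUST00000008024 holds 15 bases (3237 to 3251) that ENSMUST00000105897 lacks, placed in a CAG-rich repeat where the exact position is ambiguous. In Arid1b, ENSMUST00000115797 holds 159 bases (2983 to 3141) that ENSMUST00000092723 lacks, and in Pbrm1, ENSMUST00000112095 holds 156 bases (4601 to 4756) that ENSMUST00000022471 lacks. All 4 stretches are multiples of 3 in length.
Arid1a ENSMUST00000105897: accaggcatgagCAGgagcaactcagt
Arid1a ENSMUST00000008024: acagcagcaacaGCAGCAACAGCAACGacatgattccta
Arid1b ENSMUST00000115797: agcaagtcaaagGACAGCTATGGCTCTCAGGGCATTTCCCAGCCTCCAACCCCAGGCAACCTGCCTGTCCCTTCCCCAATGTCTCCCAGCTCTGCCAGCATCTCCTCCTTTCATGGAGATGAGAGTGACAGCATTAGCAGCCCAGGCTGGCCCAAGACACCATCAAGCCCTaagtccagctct
Pbrm1 ENSMUST00000112095: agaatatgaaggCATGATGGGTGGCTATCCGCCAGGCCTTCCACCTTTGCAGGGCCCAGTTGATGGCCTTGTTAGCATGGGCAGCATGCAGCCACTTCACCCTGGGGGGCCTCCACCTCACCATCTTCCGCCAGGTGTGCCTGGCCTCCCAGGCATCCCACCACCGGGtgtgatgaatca

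No difference between the Arid1a isoforms was detectable at this depth. ENSMUST00000008024, of 6486 bases, had 356 and 947 reads, a log2 ratio of 0.97 (0.79 to 1.15). ENSMUST00000105897, of 8175 bases, had 93 and 269 reads, a log2 ratio of 1.09 (0.75 to 1.45). The log2 difference between them was -0.12 (-0.52 to 0.27). They share 94.0% of the shorter sequence, and how the authors divided reads that match both is not given in the sources used here. Each count per isoform therefore depends on that division, whereas the sum per gene does not.

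The isoforms of Arid1b and Pbrm1 were compared in the same way. Arid1b ENSMUST00000115797, the form that holds the 159-base stretch, had 30 and 19 reads, a log2 ratio of -1.10 (-2.01 to -0.22). The shorter Arid1b ENSMUST00000092723 had 119 and 131 reads, a log2 ratio of -0.30 (-0.67 to 0.069). The log2 difference of -0.79 (-1.79 to 0.17) included 0. Pbrm1 ENSMUST00000112095, the form with the 156-base stretch, had 24 and 57 reads, a log2 ratio of 0.81 (0.097 to 1.56). Pbrm1 ENSMUST00000022471, whose sequence lies entirely within shared stretches, had 43 and 49 reads, a log2 ratio of -0.25 (-0.87 to 0.37). The difference between these Pbrm1 forms was 1.05 (0.088 to 2.04) and lay above 0, although the interval of ENSMUST00000022471 itself included no difference. These 2 forms held 67 of the 90 Pbrm1 reads in 3xFNLDD and 106 of the 144 in 3xFN-Tel-TAL, and their counts depend on the division of shared reads. In Smarcc2, ENSMUST00000026433 had 86 and 180 reads and ENSMUST00000105235 had 20 and 35, and their difference of -0.26 (-1.19 to 0.70) included 0.

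Most Smarcb1 reads were assigned to transcripts with a retained intron and not to the coding transcript. The retained-intron transcript ENSMUST00000140408 had 212 reads in 3xFNLDD against 406 in 3xFN-Tel-TAL, and the log2 ratio stood at 0.50 (0.25 to 0.74). A further one, ENSMUST00000133189, had 102 and 178 reads, a log2 ratio of 0.36 (0.0043 to 0.73). The coding transcript ENSMUST00000000925 had 41 and 36 reads, a log2 ratio of -0.63 (-1.31 to 0.054). The share of Smarcb1 reads on retained-intron transcripts was 88.5% (exact 95% interval 84.7% to 91.6%) in 3xFNLDD and 94.2% (92.1% to 95.9%) in 3xFN-Tel-TAL. The ratio of the retained-intron forms exceeded that of the coding form by 1.08 on the log2 scale (0.37 to 1.80). Per length, the 3 transcripts were alike in 3xFNLDD, at 3.95, 3.92 and 3.43 RPM per kb in the order given, and in 3xFN-Tel-TAL they were at 5.58, 5.05 and 2.22 RPM per kb.

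This order was not shared by every member. In Arid1b the retained-intron forms had 10 and 26 reads and the coding forms 149 and 150, a log2 difference of 1.36 (0.21 to 2.63). In Arid1a, by contrast, the retained-intron forms had 23 and 40 reads and the coding forms 472 and 1256, a log2 difference of -0.61 (-1.41 to 0.21). Over all genes the medians of these types were close, at a log2 ratio of 0.43 for 2061 retained-intron and 0.40 for 11031 coding transcripts with at least 20 reads. With reads summed over all transcripts of a type, the log2 ratio was 0.297 (0.285 to 0.308) for retained-intron and 0.187 (0.183 to 0.191) for coding transcripts. These forms share exons with the coding forms, so their counts too depend on how shared reads were divided. The sequencing kit does not mark strand, and a read in an intron can also come from unspliced RNA of the gene.

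**Figure D4:**
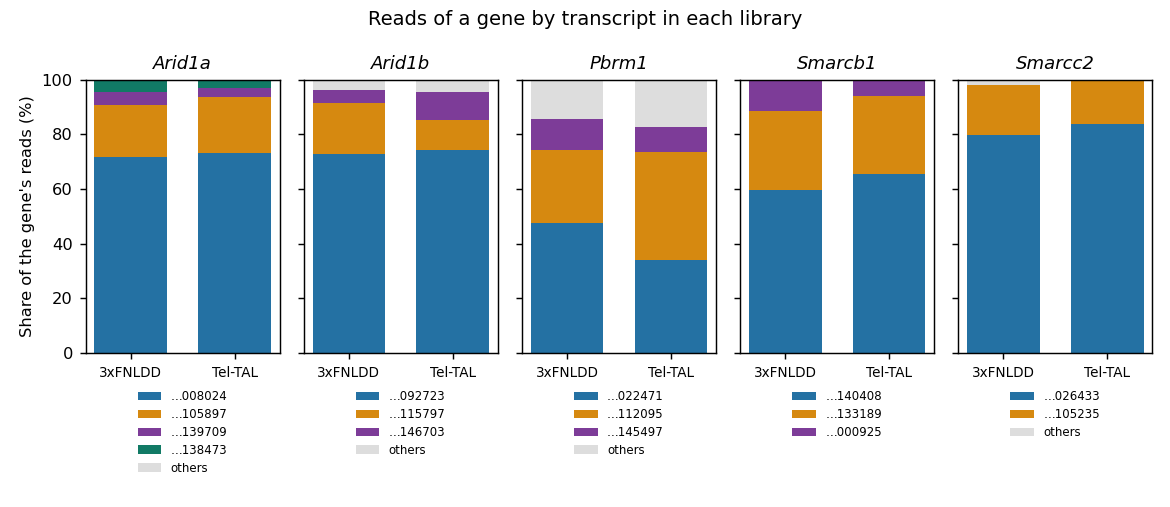
Share of each gene's reads on its transcripts, in percent, in the 3xFNLDD and 3xFN-Tel-TAL (Tel-TAL) libraries, for 5 SWI/SNF genes, with transcripts named by their last 6 digits. In Smarcb1 both retained-intron transcripts, at the bottom of the bars, together take 88.5% and 94.2% of the reads.

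The reads of Smarca2 were spread over more transcripts in 3xFN-Tel-TAL. Its coding transcript ENSMUST00000025862, of 5812 bases, had 94 and 93 reads, or 13.0 and 9.51 RPM, a log2 ratio of -0.46 (-0.88 to -0.026). Its other 12 transcripts together had 8 and 35 reads, a log2 ratio of 1.69 (0.56 to 3.01), and none of them had more than 8 reads in a library. Thus the main transcript took 92.2% of Smarca2 reads (85.1% to 96.6%) in 3xFNLDD and 72.7% (64.1% to 80.2%) in 3xFN-Tel-TAL. Of the 12, 11 are not in GENCODE M1, so their type and length are not given here. The other transcripts of Arid2 had 4 and 20 reads, against 114 and 186 on ENSMUST00000096250, and the log2 difference of -1.61 (-3.66 to 0.016) included 0. Those of Smarca4 had 0 and 9 reads, against 183 and 280 on ENSMUST00000034707. In Smarcc1 the other 3 transcripts had 7 and 11 reads, against 93 and 253 on ENSMUST00000035057, so the pattern was not general.

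Since 3xFN-Tel-TAL was directed at telomeric repeats, the most-read coding transcript of each member was searched for the repeat unit TTAGGG and its reverse complement CCCTAA. At least 1 copy was found in 7 of 10 members, and none in Arid1b, Smarcb1 and Smarcc2. Among all coding transcripts of GENCODE M1, 38.4% held a copy, and among those within the members' range of length (1660 to 8505 bases) 54.5% did. Copies were single, since 0 of 10 member transcripts held 2 units in a row, as did 23 of 55443 coding transcripts. The copies within coding sequence follow with 12 bases on each side and the unit in capitals. These are 7 of the 15 copies found, and the others lay in untranslated sequence and are not shown. The latter include all copies of Smarca4 and Smarcd1 and further copies in Smarca2, Arid2, Smarcc1 and Pbrm1.
Smarca2 ENSMUST00000025862, from base 2311: tcattaacggcaCCCTAAagcattaccagc
Arid1a ENSMUST00000008024, from base 1842: caggccctatggCCCTAAtatggccaatat
Arid2 ENSMUST00000096250, from base 1125: ggcctggacaccTTAGGGaatatcgcagct
Arid2 ENSMUST00000096250, from base 3380: tcagattcctccCCCTAAcaatgcaagagc
Smarcc1 ENSMUST00000035057, from base 1232: ggaagtggttctCCCTAAgaatgtaaaccc
Pbrm1 ENSMUST00000022471, from base 221: gtgagctgttcaTTAGGGctccaaagcgga
Pbrm1 ENSMUST00000022471, from base 2316: ggattctcatgtCCCTAAtgtgacgttgct

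The 3 genes with the highest ratios, Smarcd1, Smarcc1 and Arid1a, held a copy, as did Smarca4, Arid2, Pbrm1 and Smarca2, whose log2 ratios ranged from -0.11 to 0.36. The genes without a copy in the searched transcript were Smarcc2, at 0.55, Smarcb1, at 0.36, and Arid1b, the lowest, at -0.33. For Smarcb1 only the coding transcript was searched, which had 41 and 36 reads and a log2 ratio of -0.63. Its retained-intron transcripts, with 88.5% and 94.2% of its reads, were not searched. Over all coding transcripts with at least 20 reads, the median log2 ratio was 0.41 for the 6119 with a copy and 0.39 for the 5146 without, and the former were longer (median 3721 against 2401 bases). A match is only a description of these letters, and its part in the ratios was not tested.

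Of 23 further SWI/SNF subunit genes, 21 were listed and 20 had at least 20 reads. A ratio above 1.4 was found for 9 of the 20 and below 1/1.4 for 3, beside 41.1% and 11.5% of all genes. Their median log2 ratio was 0.36, beside 0.36 for the 10 members, and 0.88 over the 4 genes with at least 200 reads, a minimum that all 10 members passed. Among those with at least 200 reads, Dpf2, a zinc-finger subunit of BAF, was highest, with 112 and 444 reads and a log2 ratio of 1.55 (1.25 to 1.86). Bcl7a, a small BAF subunit, had 85 and 246 reads and a log2 ratio of 1.09 (0.73 to 1.47). Actb, the actin of these complexes and of the cytoskeleton, had 455 and 978 reads (log2 ratio 0.66), and Gltscr1, of the noncanonical complex, had 97 and 189 (0.52).

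The 3 subunit genes below 1/1.4 were Actl6b, Bcl11b and Bcl11a. Actl6b, the actin-related subunit of neuronal BAF, had 21 reads in 3xFNLDD against 0 in 3xFN-Tel-TAL, at least 9.50-fold lower against a floor of 3 reads in the library without reads. The upper end of its exact 95% interval was a log2 ratio of -2.82. Other subunits found in neuronal BAF had more reads in 3xFN-Tel-TAL, with 5 and 17 for Dpf1, 4 and 12 for Dpf3 and 17 and 29 for Ss18l1, and each of their intervals included a log2 ratio of 0. Bcl11b, a T-lineage transcription factor that associates with BAF, had 47 and 39 reads, a log2 ratio of -0.71 (-1.36 to -0.065). Its paralog Bcl11a, a factor of B-lymphoid and erythroid cells, had 13 and 7 reads, a log2 ratio of -1.33 (-2.90 to 0.098). Under TMM scaling the median of the 20 genes was -0.012 and that of the 10 members -0.0046.

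**Figure D5:**
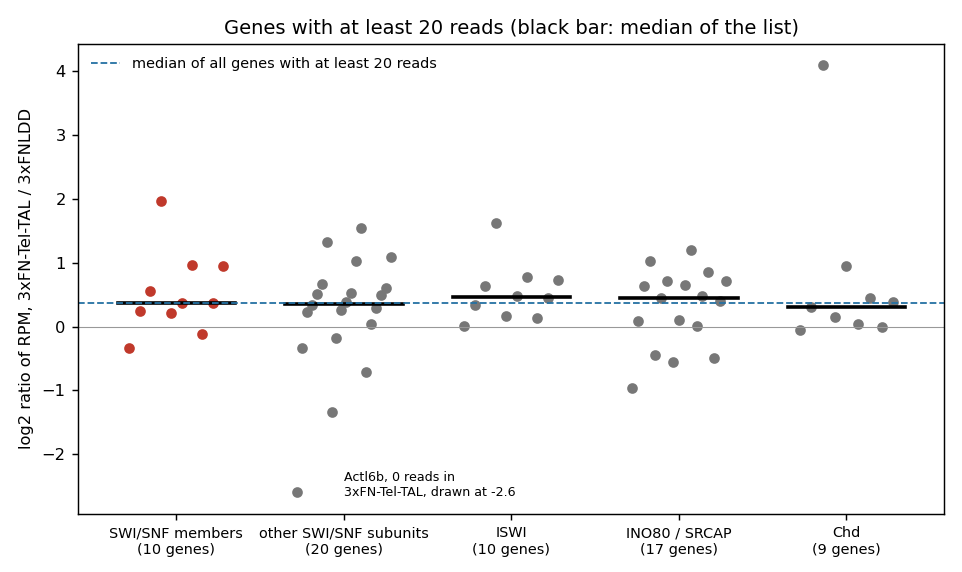
Log2 of the RPM ratio, 3xFN-Tel-TAL over 3xFNLDD, for each gene with at least 20 reads in 5 lists of chromatin remodeling genes, with the median of each list as a black bar and that of all genes as a dashed line at 0.37. The medians lie between 0.30 for the Chd genes and 0.46 for the ISWI genes, with the 10 SWI/SNF members at 0.36.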

How the data were processed

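The RNA of 2 immunoprecipitates, 1 per condition, was sequenced. The authors deposited, for each Ensembl transcript and library, an unnormalized read count and RPM, in which that count is divided by the library total. RPM recomputed here from the counts matched the deposited RPM to within rounding. The submitters' processing notes name cutadapt and the builds GRCm38 and mm10. The aligner, the annotation release and the handling of multiply matching reads are not given in the sources used here. The files list transcripts with at least 1 read in either library.

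Both tables were joined on Ensembl ID, and counts were summed per gene symbol. Ratios and intervals were computed from the counts with scipy 1.17.1, pandas 2.3.3 and numpy 2.4.6 under Python 3.11.15. Because there was 1 library per condition, no test was run. A ratio of ratios is a conditional odds ratio with its exact 95% interval. A minimum of 20 reads over both libraries was used for counts and medians. Alternatives were TMM scaling (edgeR 4.0.16, R 4.3.3, transcripts with at least 10 reads), totals without transcripts above 1%, other minimum counts, 1 added read, a threshold of 2, the 95% bound, the most-read transcript and the median-centred ratio. The procedure was run on simulated Poisson counts, the counting error that its intervals assume. The simulation held no PCR copies, no variation between libraries and no division of reads between isoforms, so it does not test these. Gene positions are RefSeq's (GRCm38.p6). Transcript types, lengths and sequences are those of GENCODE M1 (NCBIM37), matched by ID for 39 of the 52 transcripts, and its coordinates were not used.

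The members and gene lists were chosen with earlier results of these data known. All members were named. Of their transcripts, those with at least 20 reads were named. Of the other lists, the genes past 1.4-fold were named where there were at most 4 in a direction, and otherwise the highest and lowest ratios among genes with at least 200 reads. Smarcd2, Smarcd3, Brd7, Phf10, Dpf1, Dpf3 and Ss18l1, the transcripts under 20 reads, the retained-intron sums and the repeat search were added after the values were seen.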

Additional observations from a re-analysis of the deposited data

How the results depend on the processing

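The depth limits the members with the fewest reads, and 3 reads set the floor in each library. No paired analysis was possible because each condition had 1 library, and leaving out a library in turn would leave no comparison. The 4 member genes above 1.4-fold became 1 with a threshold of 2, and the 0 below 1/1.4-fold became 1 (Arid1b) with TMM scaling, with totals without dominant transcripts and relative to the median of all genes. Of the member transcripts, 9 were above 1.4-fold, and this became 4 with TMM scaling, 5 without dominant transcripts, 17 with 1 read in each library as the only minimum, 3 with a threshold of 2, 4 with the 95% bound and 4 relative to the median. Over all transcripts with at least 20 reads the shares above were 24.6% with TMM scaling, 26.8% without dominant transcripts, 18.8% with a threshold of 2, 9.9% with the 95% bound and 24% relative to the median. The 2 member transcripts below 1/1.4-fold became 5 with TMM scaling, 5 without dominant transcripts, 0 with a minimum of 200 reads, 4 with 1 read in each library, 1 with a threshold of 2, 0 with the 95% bound and 5 relative to the median. Over all transcripts the shares below were 22.6% with TMM scaling, 20.2% without dominant transcripts and 7.72% with a minimum of 200 reads. They were 4.1% with a threshold of 2, 2.22% with the 95% bound and 23.2% relative to the median. The minimum of 1 read in each library admits more member transcripts than the 20 used otherwise. Its counts of 17 and 4 are thus not comparable with 9 and 2, and no share over all transcripts is given for it. The 9 other subunit genes above 1.4-fold became 4 with TMM scaling, without dominant transcripts, with a threshold of 2 and relative to the median, and 3 with the 95% bound. Over all genes with at least 20 reads, the shares above were 20.4% with TMM scaling, 22.6% without dominant transcripts and 15% with a threshold of 2. They were 20.5% relative to the median and 10.1% with the 95% bound. With a minimum of 200 reads, 4 of the 4 genes left were above, beside 41.6% of all genes at that minimum. The median log2 ratio of the members moved from 0.36 to -0.0046 with TMM scaling and to 0.048 without dominant transcripts. Of 40 recomputed log2 ratios of single members, 28 stayed within their interval, and Pbrm1 was at -0.25 with its most-read transcript only. The 8 recomputed ratios of ratios and the 30 recomputed shares of reads stayed within theirs. With the most-read transcripts, however, the log2 difference of Smarca4 from Smarca2 was 0.63 (0.11 to 1.14), which no longer included 0. The shares were recomputed only by leaving out transcripts under 20 reads, which hold few reads, so little movement was possible. How shared reads were divided between isoforms was not varied.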

Other observations

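Genes of the other chromatin remodeler families were centred near the SWI/SNF genes, with single genes that stood apart. Of 10 ISWI-family genes with at least 20 reads, 4 were above 1.4-fold, namely Pole3 (12 reads in 3xFNLDD against 50 in 3xFN-Tel-TAL), Chrac1 (34 and 79), Baz2a (139 and 313) and Baz2b (83 and 174), and 0 were below 1/1.4-fold, beside 41.1% and 11.5% of all genes with at least 20 reads. Pole3 and Chrac1 encode the histone-fold pair of the CHRAC complex, and their log2 ratios were 1.62 and 0.78, with lower bounds of 0.69 and 0.18. Of 17 INO80 and SRCAP genes, 7 were above and 3 below (41.2% above), with Srcap, the ATPase of the SRCAP complex, at 287 and 638 reads and a log2 ratio of 0.71 (0.51 to 0.92). The 3 below were Ino80c (23 and 16 reads), Actr5 (37 and 34) and Mcrs1 (50 and 48), and each of their intervals included 0. Of 9 Chd genes, 2 (22.2%) were above and 0 below. Chd7, a remodeler of enhancers, had 25 and 579 reads, or 3.47 and 59.2 RPM, a log2 ratio of 4.09 (3.52 to 4.73). Chd9 had 52 and 136 reads, a log2 ratio of 0.95 (0.48 to 1.44).

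Some SWI/SNF genes overlap other annotated genes in the GRCm38 RefSeq table, and without strand their reads cannot be told apart where exons overlap. Smim4 overlaps Pbrm1 over 33466 bases and had 9 reads in 3xFNLDD against 2 in 3xFN-Tel-TAL. Gm15599, a pseudogene within Arid1b, had 0 and 12 reads. Within Smarca2, the long non-coding genes Gm20616 and 4931403E22Rik had 3 and 6, and 3 and 7 reads, respectively. The read counts assigned to these genes were small beside those of the members they overlap. They do not show how many member reads came from an overlapping gene. Further overlapping genes have no read count here. They are Gm34939 (1518 bases) and Gm17241 (342 bases) in Smarcd1, Gm34854 (24546 bases) in Arid1b, Gm52395 in Smarca2 and Mir7227 in Arid1a.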
